A study of Mus musculus with 12 samples.

Results

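The 10 sialyltransferase genes St6gal1, St3gal1, St3gal3, St3gal4, St3gal6, St6galnac1, St6galnac2, St6galnac3, St6galnac4 and St6galnac6 were taken by symbol from a count table of 55376 genes, and their expression was compared between EPR cKO mice and their EPR fl/fl controls. RNA-Seq was performed on whole tissue from the proximal colon of 12 mice aged 12 weeks, 6 of each genotype, with 1 library per animal. EPR, a long noncoding RNA of epithelial cells, is listed in the table as Smim31. EPR fl/fl control mice carry loxP sites around the EPR promoter and exon 1 on both alleles. EPR cKO mice carry the same floxed alleles together with a CDX2P-NLS Cre transgene, in which a human CDX2 promoter drives the recombinase in epithelial cells from the distal ileum to the end of the colon. Muscle, vessels, nerves, immune cells and fat in the tissue should therefore keep the EPR allele, which was not measured here. A control group with the transgene but without floxed alleles was not part of the comparison. Of the 10 genes, 9 passed the filter on low counts (CPM, the count scaled to the library total, of at least 1 in at least 4 libraries), and St6galnac1 did not.

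Sialyltransferases are enzymes of the Golgi that move sialic acid from its activated donor, CMP-sialic acid, to the end of a growing sugar chain. St6gal1 places sialic acid on carbon 6 of galactose, mainly on N-glycans of secreted and membrane glycoproteins. Enzymes of the St3gal family place it on carbon 3 of galactose, and those of the St6galnac family on carbon 6 of N-acetylgalactosamine, the sugar that starts mucin O-glycans, or of N-acetylgalactosamine and related sugars in glycolipids. In the colon the mucins made by goblet cells are heavily O-glycosylated, and terminal sialic acid adds negative charge and slows their breakdown by bacteria.

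The study had examined the chromatin of the St6gal1 promoter, and the sequence before each annotated start of this gene is shown because it was the member with the largest change. RefSeq (GRCm38.p6) gives 3 transcription starts for St6gal1 on the plus strand of chromosome 16, and each is also the start of an exon in the count table. The 250 bases before each start are printed 5′ to 3′, at chr16:23224490-23224739, chr16:23225771-23226020 and chr16:23290220-23290469. Capitals mark matches to a CCAAT box (CCAAT) or to the core of a CDX site (TTTATG), on either strand. The CDX core was searched because intestinal identity rests on CDX2. The Cre transgene carries the promoter of the human CDX2 gene, and a CDX core before St6gal1 has no bearing on that design.
St6gal1 start 1: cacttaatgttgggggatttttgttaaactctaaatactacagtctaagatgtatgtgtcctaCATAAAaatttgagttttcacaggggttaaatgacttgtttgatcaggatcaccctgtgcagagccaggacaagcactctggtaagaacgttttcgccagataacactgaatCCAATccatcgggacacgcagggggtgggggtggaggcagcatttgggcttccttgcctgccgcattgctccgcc
St6gal1 start 2: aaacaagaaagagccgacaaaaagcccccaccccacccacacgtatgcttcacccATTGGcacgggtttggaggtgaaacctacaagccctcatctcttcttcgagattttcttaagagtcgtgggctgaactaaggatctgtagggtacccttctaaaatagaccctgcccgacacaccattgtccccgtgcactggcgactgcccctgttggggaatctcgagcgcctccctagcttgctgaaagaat
St6gal1 start 3: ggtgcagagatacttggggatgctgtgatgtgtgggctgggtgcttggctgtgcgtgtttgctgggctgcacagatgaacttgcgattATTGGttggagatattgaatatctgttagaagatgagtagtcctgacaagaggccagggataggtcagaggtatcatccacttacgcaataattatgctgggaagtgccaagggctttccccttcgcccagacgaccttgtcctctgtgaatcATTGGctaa
The window before start 1 held a CDX core on the minus strand 187 bases before the start and a CCAAT box 75 bases before it. A CCAAT box on the minus strand lay 195 bases before start 2, and 162 and 9 bases before start 3. Among 32536 windows of the same length before RefSeq starts, 33.8% held a CCAAT box and 10.8% a CDX core, so that neither match is rare. None of the 3 windows held a GC box (GGGCGG, present in 33% of all windows), a TATA box (TATAAA, 12.3%) or an HNF1 core (GTTAAT, 6.47%). Of the 10 members, 7 had a RefSeq promoter entry. The windows of St3gal3, St3gal4, St6galnac3 and St6galnac4 and 1 of the 2 windows of St3gal6 held a GC box, and that of St6galnac6 held none of the 5 motifs. The St3gal6 window with the GC box had 171 of its 250 bases in exons of St3gal6 itself. The St6galnac6 window (chr2:32599459-32599708) lies mostly within the end of its neighbour St6galnac4, which reaches to position 32599698 on the same strand. A match is a run of letters and not a binding site. Counts were summed over the whole gene, so that transcripts from the 3 starts of St6gal1 cannot be told apart.

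Total counts per library ranged from 13093904 to 33211041, and the number of counts behind a member is given where it limits precision. The labels held for EPR itself, which was at 39.5 ± 14.5 CPM in the controls and at 0.132 ± 0.152 CPM in EPR cKO (SD, n = 6 each). The libraries also differed in tissue make-up. A composition score, the mean log2 CPM of 10 epithelial genes minus that of 10 smooth muscle genes, ran from 0.76 to 1.47 in EPR fl/fl and from 1.82 to 3.29 in 5 EPR cKO libraries, whereas EPR cKO 1 had the lowest value of all (-0.23). The groups differed by 1.16 on this log2 score (two-sided exact permutation p = 0.0649). EPR cKO 1 was also the library with the highest smooth muscle sum, 10212 CPM against 1236 to 3026 CPM in the other EPR cKO libraries. The edgeR calls of the members are therefore given with and without EPR cKO 1. In whole tissue, fewer cells of a type and less RNA per cell cannot be told apart.

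Across the 9 tested genes, St6gal1 fell, and none of the other members passed an adjusted p under 0.05 (edgeR quasi-likelihood test, Benjamini-Hochberg adjustment over 15952 genes). This was 1 of 9 members lower, where 1.57% of all tested genes were called lower, and 0 of 9 higher, where 0.884% were called higher. The DESeq2 Wald test and limma-voom also called 0 members higher, and both called St3gal3 lower beside St6gal1 (adjusted p = 0.012 and 0.0428). Over all 15952 genes they called 473 and 327 lower. At unadjusted p under 0.05, a further 3 members had a lower mean (St3gal3, St3gal6 and St6galnac2) and 1 had a higher mean (St6galnac6). The share of all tested genes past this unadjusted cut was not computed, so counts at this cut, here and below, have no background to compare with. At the stricter thresholds of the study, on the adjusted p (under 0.001) and on the size of the change, 1 member was called lower, against 0.169% of all genes. St6gal1 was also the 1 member whose groups did not overlap, which held in the lower direction for 1.47% of tested genes. The median log2 fold change of the 9 members was -0.35, against 0.02 over all tested genes, with 6 members below 0 and 3 above.

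**Figure D1:**
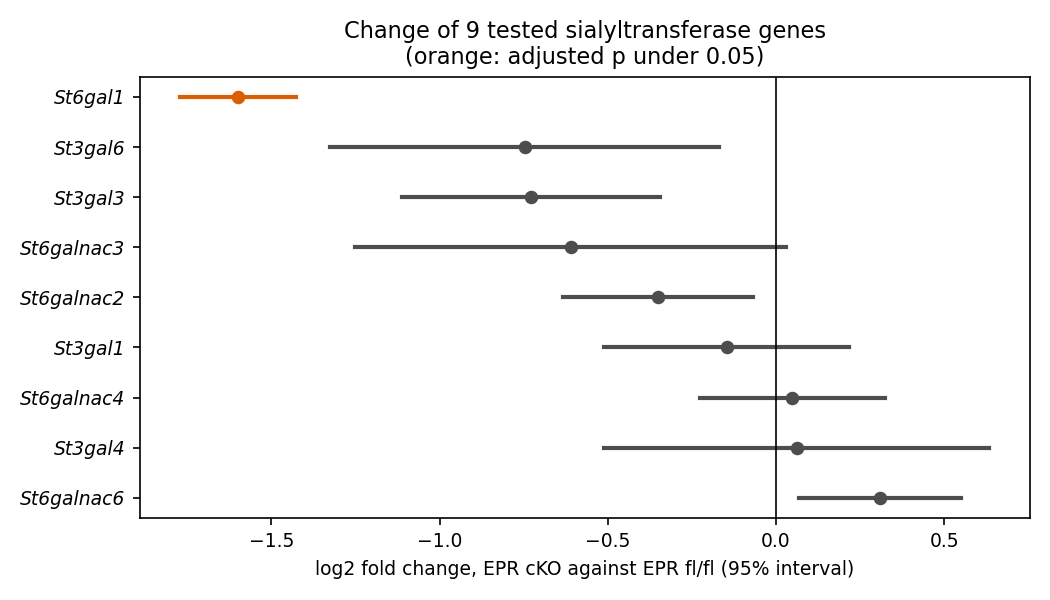
Log2 fold change of the 9 tested sialyltransferase genes in EPR cKO against EPR fl/fl (x axis), with points for the estimate and bars for its 95% interval. St6gal1, in orange, lies at -1.60 and its interval does not meet that of any other member, and the intervals of St3gal1, St3gal4, St6galnac3 and St6galnac4 include 0.

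St6gal1, the enzyme that adds sialic acid to carbon 6 of galactose, had 58.6 CPM in the lowest, 68.6 CPM in the median and 73.4 CPM in the highest EPR fl/fl library. In EPR cKO the lowest library had 19.3 CPM, the median was 21.2 CPM and the highest had 25 CPM. The highest EPR cKO library thus stayed below the lowest control by more than the whole width of either group. The mean fell from 66.5 ± 5.96 to 22 ± 2.42 CPM (SD, n = 6 each), to 33% of the control level, with a log2 fold change of -1.60 (SE 0.087, 95% interval -1.77 to -1.43, edgeR adjusted p = 1.615e-06). Counts were ample in every library, from 923 to 2316 reads in EPR fl/fl and from 368 to 798 in EPR cKO. The fall was of similar size in each animal, since EPR cKO 1 to 6 had 30.4%, 37.6%, 29%, 32%, 37.4% and 31.5% of the mean of the controls.

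St6gal1 also varied little between animals of 1 genotype. The SD of its log2 CPM was 0.13 in the controls and 0.16 in EPR cKO. St6galnac6 was the other member with a low spread in the controls (log2 SD 0.092), but its spread in EPR cKO was 0.31. St3gal4 and St3gal6 varied most in EPR fl/fl, with highest libraries 2.27-fold and 2.21-fold above the lowest, and in EPR cKO St6galnac3, St3gal6 and St3gal4 spanned 3.85-fold, 3.59-fold and 3.44-fold.

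Across EPR cKO the St6gal1 level stayed in a narrow range while the composition score moved. EPR cKO 1, with the score -0.23, had 20.3 CPM, and the 5 other EPR cKO libraries, with scores up to 3.29, had 19.3 to 25 CPM. Set against the epithelial genes of its own library, St6gal1 was at -3.29 ± 0.25 in the controls and at -5.18 ± 0.26 in EPR cKO (log2 ratio, SD, n = 6 each), a difference of -1.89 with no overlap (two-sided exact permutation p = 0.00216, the smallest that this design can give). Lack of overlap alone gives this p-value, and it does not set St6gal1 apart from every other member. On this ratio the groups did not overlap for St3gal6 (difference -1.10) and St6galnac2 (-0.63) either, and St3gal3 differed by -1.05 with overlap. The ratios of these other members were not tested, and the share of all genes without overlap on this ratio was not computed. All 10 epithelial genes had a higher mean in EPR cKO, with a median log2 fold change of 0.30, and 0 passed the adjusted threshold in edgeR (6 at an unadjusted p under 0.05, 1 with DESeq2, 0 with limma-voom). St6gal1 is also expressed by B cells and plasma cells. The B cell list (8 genes, of which Cd79a and Cd79b passed the filter) summed to between 2.44 and 15.5 CPM in the controls and to between 1.21 and 15.5 CPM in EPR cKO, and the plasma cell list to 306 to 478 and 256 to 510 CPM, with 0 genes called in either by edgeR, DESeq2 or limma-voom, and 0 at an unadjusted p under 0.05 in edgeR. The EPR fl/fl library with the most B cell RNA had 73.4 CPM of St6gal1, the highest value of the controls, and the EPR cKO library with the most had 21 CPM. The part of B cells and plasma cells in the level of St6gal1 was not tested. Goblet cell genes moved in the same direction as St6gal1. All 10 had a lower mean in EPR cKO, with a median log2 fold change of -0.80. With edgeR 6 were called lower (Muc2, Clca1, Spdef, Tff3, Zg16 and Atoh1), where 1.57% of all tested genes were. DESeq2 called 8 lower and limma-voom 7. Their sum was 13503 to 28643 CPM in the controls and 6242 to 8645 CPM in EPR cKO. The part of goblet cell content in the fall of St6gal1 was not tested.

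**Figure D2:**
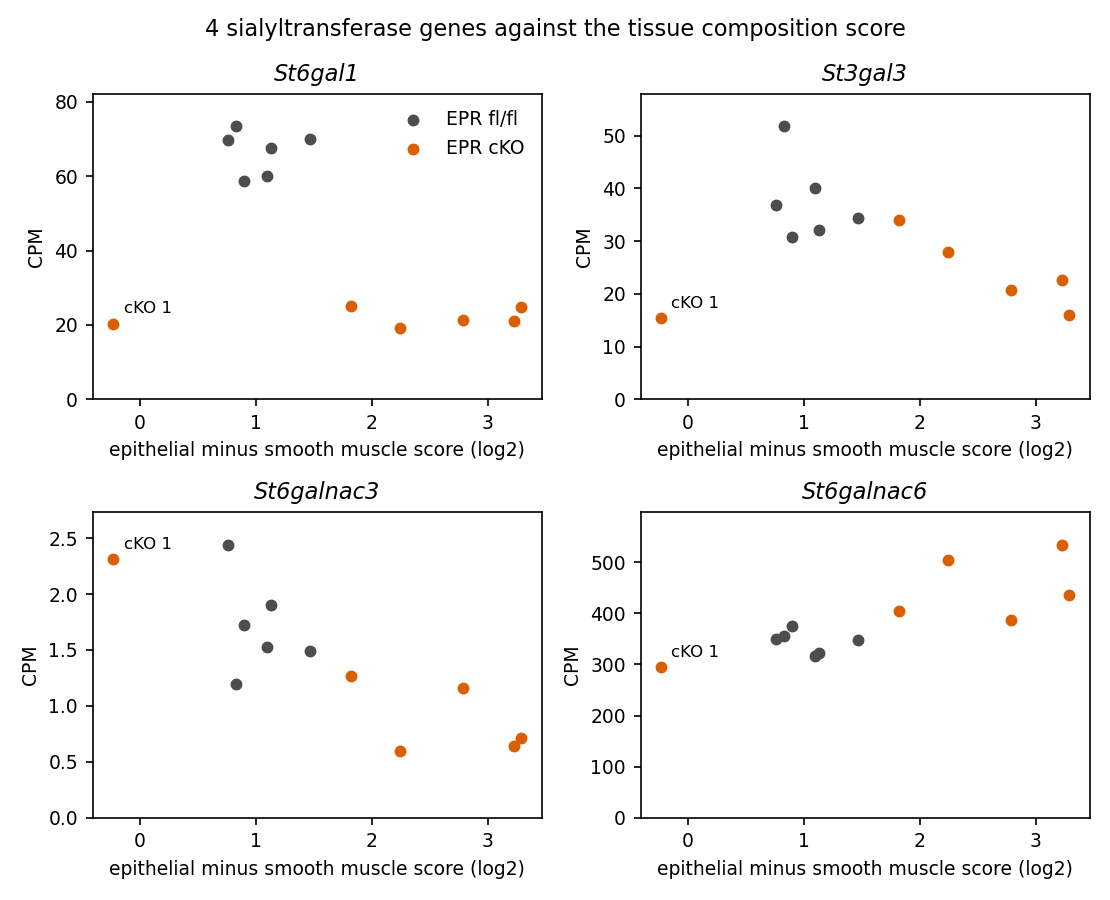
CPM of St6gal1, St3gal3, St6galnac3 and St6galnac6 (y axes, from 0) against the composition score (x axes, log2, epithelial minus smooth muscle genes), with 1 point per library and EPR cKO 1 named. The 6 EPR cKO points of St6gal1 lie between 19.3 and 25 CPM at scores from -0.23 to 3.29, whereas EPR cKO 1 holds the lowest point of St3gal3 and of St6galnac6.

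The 4 St3gal genes, whose enzymes add sialic acid to carbon 3 of galactose, were called neither lower nor higher by edgeR with all libraries. St3gal3, which acts on galactose at the ends of N-glycans and other chains, had 30.8 CPM in the lowest, 35.7 in the median and 51.8 in the highest EPR fl/fl library. Its values in EPR cKO were 15.4, 21.6 and 34 CPM. A single library, EPR cKO 2 with 34 CPM, reached into the control range, and the other 5 lay below it. The group means were 37.7 ± 7.65 CPM and, for EPR cKO, 22.8 ± 7.18 CPM (SD, n = 6 each), or 60.5% of the control level, with a log2 fold change of -0.73 (SE 0.20, edgeR adjusted p = 0.0727). The call turned on the fit. Without EPR cKO 1 the log2 fold change was -0.66 (adjusted p = 0.0237), and without EPR cKO 2 it was -0.87 (adjusted p = 0.0351).

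St3gal6, another enzyme for galactose at carbon 3, had 19.8, 24 and 43.7 CPM in the lowest, median and highest EPR fl/fl library and 6.67, 17.6 and 24 CPM in EPR cKO. Of the EPR cKO libraries, 3 lay below all controls and 3 within their range. The log2 fold change was -0.75 (SE 0.295, 95% interval -1.325 to -0.17, edgeR adjusted p = 0.206). Exons of Dcbld2 on the opposite strand cover 36.3% of the exon length of St3gal6. The strand setting of the counting is not given in the sources used here, so that reads of both genes may be mixed in this value. The same limit holds to a smaller degree for other members with exons of a gene on the opposite strand. These cover 10.03% of the exon length of St6galnac2, 5.39% of St3gal4 and 4.14% of St6gal1.

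St3gal1, which caps the core O-glycan disaccharide of mucins, had 30.5, 37.6 and 48.8 CPM in the lowest, median and highest EPR fl/fl library. In EPR cKO the same values were 24.4, 32.5 and 46.8 CPM. The libraries of EPR cKO split evenly, with 3 below all controls and 3 among them, and the log2 fold change was -0.15 (SE 0.19, 95% interval -0.51 to 0.22, edgeR adjusted p = 0.685). St3gal4 had by far the most RNA of the 4, with 171, 253 and 388 CPM in the control animals and 143, 258 and 491 CPM in EPR cKO. It was also the most variable of the abundant members, and the EPR cKO range enclosed the control range. Its log2 fold change was 0.06 (95% interval -0.51 to 0.63, edgeR adjusted p = 0.924) and the interval spans changes in both directions.

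Among the St6galnac genes, St6galnac6 and St6galnac3 leaned in opposite directions, and neither passed the edgeR, DESeq2 or limma-voom test with all libraries. Both passed with limma-voom quality weights, which weight each library by its fit (-0.92, adjusted p = 0.0256 for St6galnac3, and 0.39, adjusted p = 0.0171 for St6galnac6). St6galnac6, which acts on glycolipids and on sialylated chains of glycoproteins, had 316, 349 and 375 CPM in the lowest, median and highest EPR fl/fl library and 295, 421 and 534 CPM in EPR cKO. Of the EPR cKO libraries, 5 were above every control, whereas EPR cKO 1 was below every control. The log2 fold change was 0.31 (SE 0.12, 95% interval 0.068 to 0.55, edgeR adjusted p = 0.208). Relative to the epithelial genes of the same library, St6galnac6 had the same level in both genotypes, with a difference of -0.001 on the log2 scale (-0.92 ± 0.15 against -0.92 ± 0.097).

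St6galnac3, an enzyme known for its action on gangliosides, was the least abundant tested member, with 223 reads in all EPR fl/fl libraries together and 145 in EPR cKO. Its lowest, median and highest values were 1.21, 1.62 and 2.44 CPM in the control animals and 0.601, 0.94 and 2.31 CPM in EPR cKO. The highest EPR cKO value was again that of EPR cKO 1, and the others did not exceed 1.27 CPM. The log2 fold change was -0.61 (SE 0.33, 95% interval -1.25 to 0.03, edgeR adjusted p = 0.341).

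St6galnac2, which adds sialic acid to the N-acetylgalactosamine of O-glycans, had 25.6, 32.3 and 40 CPM in the lowest, median and highest EPR fl/fl library and 18.7, 25.9 and 31.1 CPM in EPR cKO. The groups overlapped, with 3 EPR cKO libraries below all controls. The log2 fold change was -0.35 (SE 0.14, edgeR adjusted p = 0.222). St6galnac4, which extends O-glycans that already carry a sialic acid, had 11.5, 13.4 and 17.7 CPM in the control animals and 10.7, 15 and 18.6 CPM in EPR cKO. In EPR cKO 4 libraries lay within the control range, 1 below it and 1 above it, and its log2 fold change was 0.05 (SE 0.14, 95% interval -0.23 to 0.32, edgeR adjusted p = 0.866). St6galnac4 and St6galnac6 are neighbours on the plus strand of chromosome 2, at chr2:32587095-32599698 and chr2:32599709-32620806 (mm10).

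St6galnac1, the enzyme that makes the sialyl-Tn antigen on mucins, was at the detection limit. The table listed 0 reads for it in all 6 EPR fl/fl libraries, 1 read in EPR cKO 1, 1 in EPR cKO 4 and 0 in the rest. A count of 0 allows up to 3 reads, which is 0.0903 to 0.229 CPM per library and 0.0219 CPM over a group, for counting error only. No fold is given, since both groups lie under this limit. Of the 50-base stretches of its transcripts, 34.9% also occur in Gm11735, an unprocessed pseudogene close by on chromosome 11, which was looked up after the values were seen. The other stretches do not occur in that gene. How reads with several alignments were counted is not given in the sources used here, and their part in the low count of St6galnac1 was not tested. Gm11735 itself had 3, 15, 17, 19, 8 and 8 reads in EPR fl/fl 1 to 6 and 2, 3, 3, 6, 5 and 5 reads in EPR cKO 1 to 6. This is 0.49 ± 0.17 CPM against 0.179 ± 0.0736 CPM (SD, n = 6 each), below the filter and not tested.

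EPR cKO 1 stood at an end of the EPR cKO group for 5 of the 9 tested members. It was the lowest for St3gal3, St6galnac2, St6galnac4 and St6galnac6 and the highest for St6galnac3. Any library in a group of 6 is at an end for some genes, and Dixon's test set no library apart for a tested member. Without this library 3 members were called lower (St6gal1, St3gal3 and St6galnac3) and 1 higher (St6galnac6), with edgeR adjusted p = 0.0233 for St6galnac3 at a log2 fold change of -0.95 and 0.014 for St6galnac6 at 0.38. The same step raised the share of all genes called lower to 14.4% and of those called higher to 7.44%, so that the added calls came with many others. All 10 smooth muscle genes and all 5 adipocyte genes were then called lower and 5 of 10 epithelial genes higher, where edgeR called 0 of each with all 12 libraries. Goblet cell calls went from 6 to 9, and those of macrophages, endothelium and neurons and glia from 0 to 3, 4 and 5, all lower. The remaining 5 EPR cKO libraries all had a composition score above every control. With the composition score as a covariate and all 12 libraries, the log2 fold change was -0.17 for St6galnac3 (edgeR adjusted p = 0.821), 0.084 for St6galnac6 (adjusted p = 0.793) and -0.75 for St3gal3 (adjusted p = 0.173), and that of St6gal1 remained called.

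St6gal1 was set against each other tested member with the ratio of 2 genes within each library, for 8 ratios. It was already the member with the largest change in these same libraries. The p-values take no account of that, so the ratios describe its difference from each member and are not independent evidence. The log2 ratio of St6gal1 to St6galnac6 dropped by 1.88, to St6galnac4 by 1.65, to St3gal1 by 1.41 and to St6galnac2 by 1.26 (exact permutation p = 0.00216, the smallest possible, adjusted p = 0.00433 over the 8 ratios, each). The ratio to St3gal4 dropped by 1.59 (exact p = 0.00433, adjusted 0.00693). Smaller differences of -0.84 and -0.90 were found against St3gal3 (exact p = 0.00649, adjusted 0.00866) and St6galnac3 (exact p = 0.0108, adjusted 0.0124). Against St3gal6 the difference of -0.78 was not distinguished from the spread (exact p = 0.0584, adjusted 0.0584). St6gal1 was thus lower relative to 7 of the 8 other tested members. Leaving out single libraries moved the exact p for St3gal6 between 0.00649 (without EPR cKO 5) and 0.113, and it was 0.0498 without EPR fl/fl 3.

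**Figure D3:**
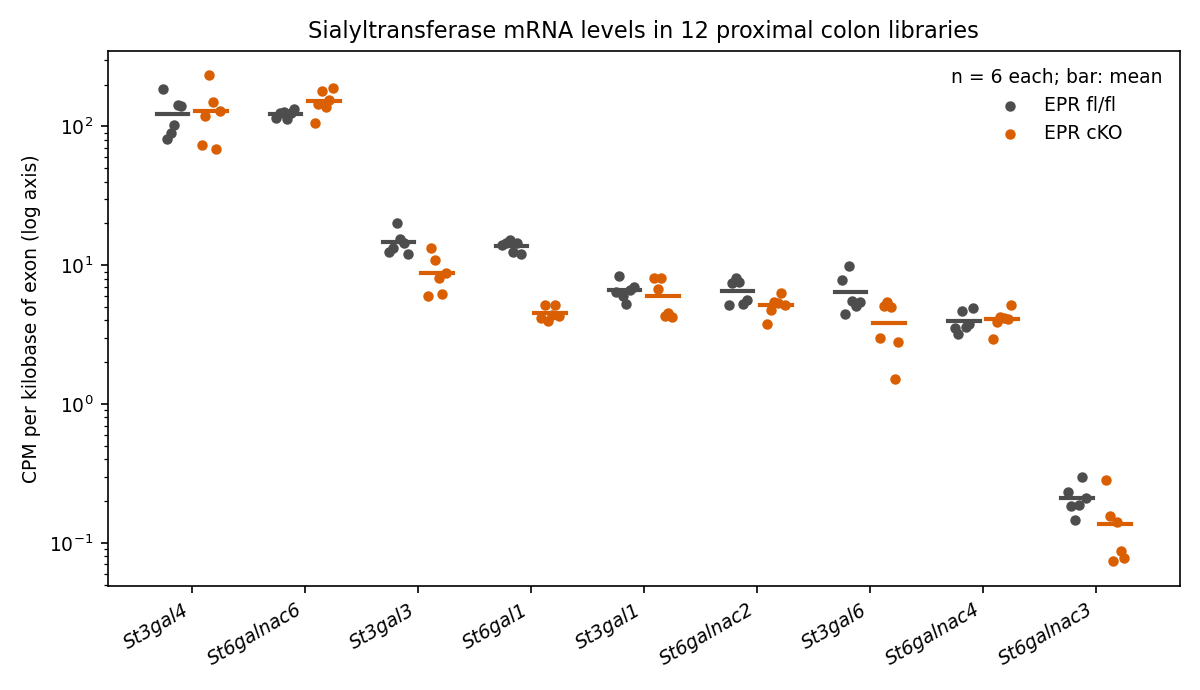
Level of the 9 tested members in each library, in CPM per kilobase of exon on a log axis (y axis), ordered from left to right by the EPR fl/fl mean, with 6 points per genotype and a bar at the mean. For St6gal1 the 2 genotypes lie apart, at 13.8 and 4.54 CPM per kilobase on average, and for the other members they overlap.

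Levels of different genes were compared per kilobase of exon. St3gal4 (124 ± 39.6 CPM per kilobase) and St6galnac6 (123 ± 7.76 CPM per kilobase) were the most abundant members in EPR fl/fl, and their order was not settled, since St3gal4 was higher in 3 of 6 libraries. St3gal3 (14.6 ± 2.97) and St6gal1 (13.8 ± 1.23 CPM per kilobase) followed, also with overlapping ranges. St3gal1 (6.61 CPM per kilobase), St6galnac2 (6.53), St3gal6 (6.38) and St6galnac4 (3.95) came next, each overlapping its neighbour. St6galnac3 lay far below, at 0.21 CPM per kilobase. The ranges were apart between St6galnac6 and St3gal3, between St6gal1 and St3gal1 and between St6galnac4 and St6galnac3. In EPR cKO St6gal1 moved down this order. At 4.54 ± 0.50 CPM per kilobase it was below St3gal3 in 6 of 6 libraries and above St3gal1 in 3 of 6, against 2 of 6 and 6 of 6 in the controls.

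The summed level of the 10 members was 298 ± 36.6 CPM per kilobase in the controls and 313 ± 84.7 in EPR cKO. St6gal1, the one member for carbon 6 of galactose, made up 4.68% ± 0.74 of this sum in EPR fl/fl, between 3.78% and 5.63%, and 1.55% ± 0.46 in EPR cKO, between 0.882% and 2.05%. The 4 St3gal genes made up 50.1% ± 6.61 and 45.7% ± 8.85, and the 5 St6galnac genes 45.3% ± 6.01 and 52.7% ± 8.52. St3gal4 and St6galnac6 held most of the sum in both genotypes, with 40.6% and 41.6% in EPR fl/fl and 39.6% and 49.6% in EPR cKO. These are shares of RNA and say nothing of enzyme activity.

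**Figure D4:**
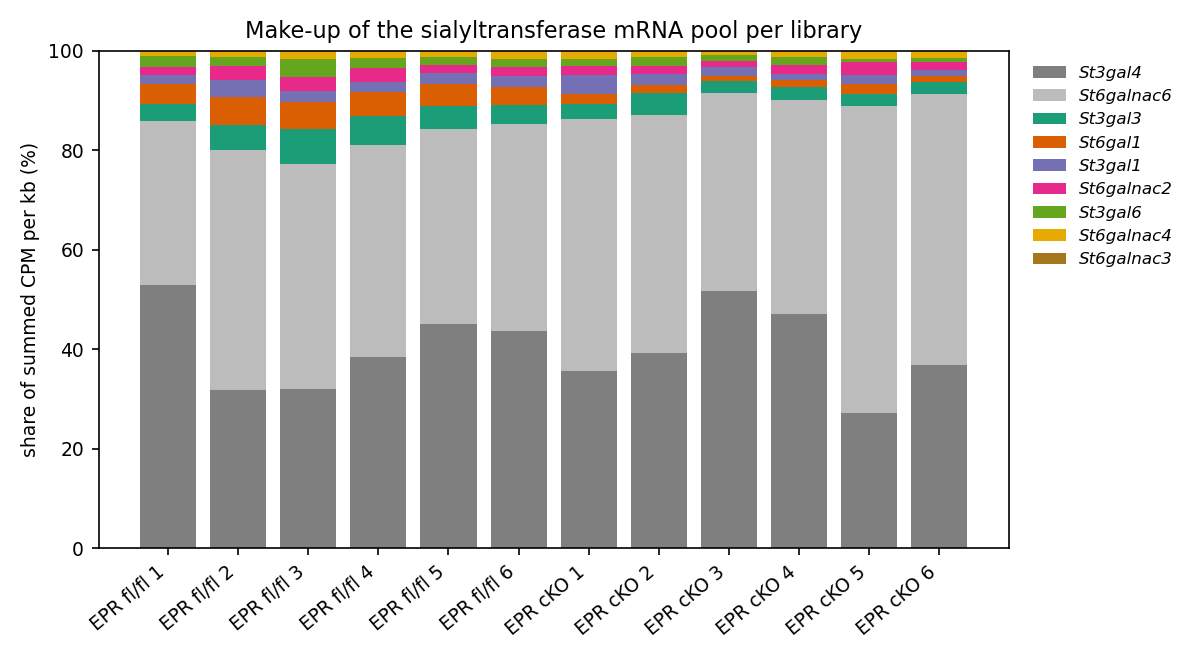
Share of each member in the summed CPM per kilobase of exon of the sialyltransferase genes (y axis, percent), 1 bar per library. St3gal4 and St6galnac6, in grey, fill most of every bar, and the St6gal1 band is narrower in all 6 EPR cKO bars (0.882% to 2.05%) than in any EPR fl/fl bar (3.78% to 5.63%).

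The other sialyltransferase genes of the mouse were examined in the same way. Of 10 such genes, 5 passed the filter, 3 with a lower and 2 with a higher mean, and 0 were called in either direction by edgeR (adjusted p from 0.445 to 0.943, and 0 at an unadjusted p under 0.05), DESeq2 or limma-voom. St3gal2 ranged from 10.1 to 15.3 CPM in the controls and from 4.74 to 22.2 CPM in EPR cKO. It was called lower without EPR cKO 1, where 14.4% of all tested genes were. St3gal5, the enzyme that makes the ganglioside GM3, varied widely in both, from 1.71 to 17.8 CPM and from 1.45 to 27.2 CPM. St8sia4, which makes polysialic acid, ranged from 9.61 to 14 CPM and from 9.27 to 12.2 CPM. St8sia1 and St8sia6 did not exceed 2.64 CPM in any library. The other St6gal gene, St6gal2, did not pass the filter, so that St6gal1 was the one tested gene of its family.

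Genes that supply the donor sugar followed. Of 6 genes, 5 were tested and all 5 had a lower mean in EPR cKO, with 0 called by edgeR (2 at an unadjusted p under 0.05), DESeq2 or limma-voom. Gne, the first enzyme of sialic acid synthesis, had a log2 fold change of -0.40 (edgeR adjusted p = 0.218), and Cmah, which turns N-acetylneuraminic into N-glycolylneuraminic acid, one of -0.64 (adjusted p = 0.147). Without EPR cKO 1, Cmah was called lower. Cmas, which activates sialic acid with CMP, had 124 ± 4.49 and 124 ± 20.8 CPM, and the Golgi transporter Slc35a1 135 ± 15.1 and 124 ± 23.2 CPM. Of 12 genes for removal, recycling and O-acetylation, 10 were tested, 5 were lower and 5 higher in their means, and 0 were called by edgeR or limma-voom (2 at an unadjusted p under 0.05 in edgeR). DESeq2 called Neu1 lower and Amdhd2 higher, and without EPR cKO 1 edgeR called Neu1 and Neu3 lower and Amdhd2 and Nagk higher. Over all 15952 tested genes DESeq2 called 473 lower and 440 higher. Without EPR cKO 1 edgeR called 14.4% of all tested genes lower and 7.44% higher. The lowest edgeR adjusted p was that of Amdhd2, which breaks down N-acetylglucosamine phosphate (0.0871, log2 fold change 0.30), and the lysosomal sialidase Neu1 had 0.112 at a log2 fold change of -0.37. Siglecs and other readers of sialic acid on immune cells were scarce, with 4 of 9 genes tested and 0 called by edgeR (1 at an unadjusted p under 0.05), DESeq2 or limma-voom, while Siglec1 was called lower without EPR cKO 1.

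Among the enzymes that build the sugar chains to which sialic acid is added, all 14 genes were tested, and 9 had a lower and 5 a higher mean. With all libraries edgeR called 3 lower, where 1.57% of all genes were, and 0 higher. DESeq2, limma-voom and edgeR without EPR cKO 1 called 4 lower, adding C1galt1, and 0 higher. Over all tested genes these fits called 473, 327 and 2273 lower. B3gnt6, the core 3 synthase of intestinal O-glycans, fell from 27.6 ± 6.77 to 4.06 ± 1.38 CPM (SD, n = 6 each), a log2 fold change of -2.755 (SE 0.23, edgeR adjusted p = 4.329e-05). Galnt7, a transferase that adds N-acetylgalactosamine to partly glycosylated peptides, fell from 252 ± 42.2 to 168 ± 13.4 CPM (log2 fold change -0.58, SE 0.11, edgeR adjusted p = 0.0117). C1galt1c1, the chaperone of the core 1 synthase, fell from 60.3 ± 4.8 to 42.8 ± 6.84 CPM (log2 fold change -0.50, SE 0.11, edgeR adjusted p = 0.0287). The call of C1galt1c1 was lost in 9 of 12 fits with 1 library left out, with adjusted p up to 0.101, and was kept only without EPR fl/fl 3, EPR cKO 1 or EPR cKO 5.

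The tested genes whose profile over the 12 libraries was most like that of St6gal1 were listed as a description, by the root mean square difference in log2 CPM after centring each gene on its EPR fl/fl mean. They were Klhdc8a (0.208), Atp2c2, a calcium pump of the secretory pathway (0.221), Bace2, an aspartyl protease (0.239), Hgfac, a serine protease that activates hepatocyte growth factor (0.246), and Ramp1, a subunit of the calcitonin gene-related peptide receptor (0.273). This choice favours genes with a like change and with groups apart, so neither is a separate result. Their log2 fold changes ran from -1.65 for Atp2c2 to -1.36 for Bace2. The groups did not overlap for any of the 5, which held in the lower direction for 1.47% of all tested genes. Bace2 lies on chromosome 16 like St6gal1, and the others lie on chromosomes 1, 5 and 8.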

How the data were processed

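RNA-Seq was performed by the authors on ribosomal RNA-depleted, stranded paired-end libraries of 12 proximal colon samples, 1 per animal. Reads were aligned to mm10 with STAR 2.5.3a and counted per gene with featureCounts on an Ensembl annotation. The deposited values were raw counts, neither normalized nor filtered. The strand setting and the treatment of reads with several alignments are not given in the sources used here.

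The counts were tested here with edgeR 4.0.16 in R 4.3.3 (TMM scaling, glmQLFit and glmQLFTest, no covariate). Genes with at least 1 CPM in at least 4 libraries were kept (15952 of 36694 with any count), and p-values were adjusted by the Benjamini-Hochberg method over all of them. Precision was set by a common biological coefficient of variation of 26.1%, with a median SE of 0.145 for log2 fold changes. The 95% intervals reach 1.96 SE to each side of the estimate. This normal approximation is somewhat narrower than the quasi-likelihood test implies, so an interval can exclude 0 at an unadjusted p above 0.05. CPM values are TMM-scaled, except those of Gm11735 and the limits for 0 reads, which use total counts. Within-library ratios used log2 CPM with a prior count of 2 and two-sided exact permutation tests over all assignments of 6 of the 12 libraries. Scripts were tested on simulated data. Groups came from the sample labels. In 30 pairs of libraries of 1 group, none agreed within sampling noise.

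The alternatives were other scalings, filters, DESeq2 1.42.0, limma 3.58.1 (voom, with and without quality weights), a replicate block, a composition covariate and leaving out each library. The members and lists were chosen with earlier results of these data known. Named genes were the 10 members, EPR, list genes with an adjusted p under 0.05 and the 5 genes most like St6gal1. Further named genes were chosen after their values were seen. Marker lists not described in the report had 0 genes called by edgeR (0 at an unadjusted p under 0.05, except 5 adipocyte genes), and DESeq2 called 1 adipocyte gene, with summed CPM in EPR fl/fl and EPR cKO of 3445 to 5869 and 1236 to 10212 (smooth muscle), 18.1 to 62.4 and 20.4 to 53.1 (T cells), 98.8 to 239 and 74.8 to 197 (macrophages), 71.1 to 83.9 and 35 to 121 (endothelium), 28.2 to 56.1 and 11.3 to 95.8 (neurons and glia) and 272 to 1001 and 43.6 to 566 (adipocytes).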

Additional observations from a re-analysis of the deposited data

Results flagged for a closer look

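No library stood apart from its group by Dixon's test for any of the tested sialyltransferase genes. Of 42 sets of 6 libraries examined (the members, EPR and the summed marker lists), 6 had a library that stood apart, where chance gives 2.1. In EPR cKO 1 the smooth muscle list summed to 10212 CPM (1236 to 3026 CPM in the other EPR cKO libraries), the neuron and glia list to 95.8 CPM (11.3 to 28.8 CPM) and the adipocyte list to 566 CPM (43.6 to 182 CPM). The B cell list summed to 15.5 CPM in EPR fl/fl 3 (2.44 to 5.66 CPM in the other controls) and to 15.5 CPM in EPR cKO 6 (1.21 to 4.76 CPM in the others). EPR itself was at 0.424 CPM in EPR cKO 2, against 0 to 0.134 CPM in the other EPR cKO libraries.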

How the results depend on the processing

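St6gal1 kept its call in all 9 alternatives on all libraries (log2 fold change -1.64 to -1.59, adjusted p up to 0.000184) and in all 12 fits without 1 library (-1.64 to -1.56), and the count of members past the study thresholds stayed at 1. The members called lower numbered 2 with the DESeq2 Wald test and limma-voom, 3 with voom quality weights, and 1 to 3 without 1 library (3 without EPR cKO 1, 2 without EPR cKO 2). Those called higher numbered 1 with quality weights and 0 to 1 without 1 library. The added calls were St3gal3 (adjusted p = 0.012 with DESeq2, 0.0428 with voom, 0.0165 with quality weights), and with quality weights St6galnac3 (-0.92, 0.0256) and St6galnac6 (0.39, 0.0171). With quality weights 1891 genes were called lower and 1372 higher, with DESeq2 473 and 440, and with edgeR 251 and 141. 3 members near 0 changed sign: St3gal1 with the composition covariate (0.086), St3gal4 with voom (-0.013), the replicate block (-0.002) and the covariate (-0.10), and between -0.20 and 0.20 without 1 library, and St6galnac4 with the covariate (-0.14), and between -0.024 and 0.12 without 1 library. For these changes the cause was not tested. Total counts without TMM moved the median of all genes from 0.017 to -0.015, changed no direction of a member, and gave 247 genes lower and 39 higher. C1galt1c1 also lost its call with total counts (adjusted p = 0.0601) and the block (0.0615), and B3gnt6 and Galnt7 kept theirs throughout. The replicate numbers did not pair the samples (correlations of same-numbered deviations -0.242 to 0.34, with 2 of 6 libraries of each genotype correlating best with their own number). A fit with the replicate block gave 178 genes lower and 67 higher, with 1 member lower and 0 higher. The ratio of St6gal1 to the epithelial genes stayed between -1.97 and -1.79 in all its alternatives (exact p = 0.00216). For the ratios between members, a prior count of 0.5 and leaving out libraries were added after seeing the data. Depth limits St6galnac1, which had at most 1 read in a library.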

Other observations

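C1galt1, the core 1 O-glycan synthase that depends on the chaperone C1galt1c1, had 349 ± 33.8 CPM in the controls and 264 ± 34.6 CPM in EPR cKO (SD, n = 6 each), with every EPR cKO library below every control, but did not pass the threshold (log2 fold change -0.40, edgeR adjusted p = 0.0566). Groups apart in the lower direction were found for 1.47% of all tested genes. C1galt1 was called lower by DESeq2, by limma-voom and by edgeR without EPR cKO 1. Over all tested genes these fits called 473, 327 and 2273 lower. Siglech, a siglec of plasmacytoid dendritic cells, was below the filter and not tested. It had 0.317 to 0.78 CPM in the controls and 0 to 0.266 CPM in EPR cKO, with 71 and 20 reads in all. The share of genes below the filter whose groups lie apart was not computed. Both genes were chosen after their values were seen.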
